A study of Homo sapiens with 6 samples.

Results

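Alveolar fibroblasts are mesenchymal cells of the lung that lie in the walls of the air sacs, next to the alveolar epithelium. SCN7A, RARRES2, LIMCH1, PLEKHH2, INMT, GPM6B and SHISA3, 7 genes used as markers of these cells, were followed here among the 57659 genes counted in 6 RNA-seq libraries. All 7 were found by Ensembl identifier. They were picked from known markers with the knockdown and control levels of these same libraries in view, so their own differences are given as descriptions, with no test of the set.

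The libraries came from IMR90 cells, a line of primary human fetal lung fibroblasts grown in medium with serum. In 3 control libraries the cells expressed a short hairpin RNA directed at luciferase, a light-producing enzyme of fireflies, and in 3 knockdown libraries a hairpin directed at macroH2A1, a histone H2A variant with a large extra domain. Every library came from cells that carry a hairpin, the labels describe no untreated cells, and the number of hairpin sequences per target is not given in the sources used here. The design text calls the 3 libraries of each group biological replicates.

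The 7 genes have unlike roles. SCN7A encodes a sodium channel relative that responds to sodium outside the cell, and GPM6B encodes a membrane glycoprotein of the proteolipid family. RARRES2 encodes chemerin, a secreted attractant of immune cells named for its response to retinoids, and SHISA3 a membrane protein of a family known to hold back FGF and frizzled receptors in the endoplasmic reticulum. LIMCH1 encodes an actin-associated protein that acts on non-muscle myosin II, PLEKHH2 a scaffold with pleckstrin homology and FERM domains, and INMT an enzyme that methylates tryptamine and related amines. In lung tissue such markers set alveolar fibroblasts apart from adventitial fibroblasts, myofibroblasts and pericytes.

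Sequence before the start sites is shown for the 4 genes to which RefSeq assigns 1 start, because this group holds a pair that was higher after knockdown (RARRES2 and SHISA3) and a pair that was not called (PLEKHH2 and INMT). Each run is the 250 bases before the start on the gene's own strand, from RefSeq on GRCh38.p14; the counts themselves were made on hg19. Capitals mark matches, on either strand, to TATAAA (the element bound by TBP), CCAAT (bound by NF-Y), GGGCGG (the box bound by SP1), TGANTCA (an AP-1 site), CAGCTG (an E-box) or AGGTCA (a nuclear receptor half-site), and no match overlapped another in these windows.
RARRES2, chr7:150341630-150341879, minus strand: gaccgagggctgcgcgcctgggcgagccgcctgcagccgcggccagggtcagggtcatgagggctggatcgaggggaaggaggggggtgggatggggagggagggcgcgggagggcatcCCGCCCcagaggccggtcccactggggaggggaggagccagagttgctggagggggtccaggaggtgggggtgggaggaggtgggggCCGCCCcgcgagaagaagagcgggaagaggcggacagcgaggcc
SHISA3, chr4:42397238-42397487, plus strand: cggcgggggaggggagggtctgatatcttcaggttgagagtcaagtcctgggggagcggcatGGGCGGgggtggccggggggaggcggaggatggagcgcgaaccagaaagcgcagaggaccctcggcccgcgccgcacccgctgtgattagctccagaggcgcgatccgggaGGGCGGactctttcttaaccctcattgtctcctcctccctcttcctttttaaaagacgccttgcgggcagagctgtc
PLEKHH2, chr2:43637010-43637259, plus strand: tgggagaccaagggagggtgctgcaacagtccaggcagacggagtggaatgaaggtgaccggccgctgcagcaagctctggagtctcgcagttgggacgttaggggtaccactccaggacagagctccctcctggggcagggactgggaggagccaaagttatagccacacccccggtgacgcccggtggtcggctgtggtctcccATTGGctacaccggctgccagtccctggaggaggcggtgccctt
INMT, chr7:30751885-30752134, plus strand: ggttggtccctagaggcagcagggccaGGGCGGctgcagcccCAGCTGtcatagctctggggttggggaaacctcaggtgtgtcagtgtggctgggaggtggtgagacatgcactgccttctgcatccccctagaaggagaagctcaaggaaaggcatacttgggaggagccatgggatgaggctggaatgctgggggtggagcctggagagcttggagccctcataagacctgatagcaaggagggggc

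The windows of RARRES2 and SHISA3 each held 2 SP1 boxes and none of the other motifs. The window of PLEKHH2 held 1 NF-Y element, and that of INMT 1 SP1 box and 1 E-box. Among all 35116 RefSeq windows of this length, 42.6% held an SP1 box, 32% an NF-Y element, 14% the E-box, 12.1% the half-site, 10.7% a TBP element and 6.57% an AP-1 site, so none of these matches is rare. The windows differed more in CpG content. The ratio of observed to expected CG pairs was 0.782 for SHISA3, 0.613 for RARRES2, 0.432 for PLEKHH2 and 0.0472 for INMT, against a median of 0.558 over all windows. The INMT window held 1 CG pair and had a lower ratio than all but 6.17% of windows. RefSeq gives 2 starts for SCN7A, 2 for GPM6B and 4 for LIMCH1, and gene counts do not say which was in use. Their ratios were 0 and 0.411 for SCN7A, and 0.193, 1.05, 0.13 and 0.244 for LIMCH1, both called. GPM6B, not called, had 0.93 and 0.402. Over all 7 genes the ratios thus did not sort by call, and a link between CpG content and the calls was not tested.

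SHISA3 and RARRES2 had the largest fold differences among the 7 genes. SHISA3 counted 17, 7 and 11 reads in the 3 control libraries, against 103, 95 and 84 after knockdown. Scaled to counts per 1000000 with TMM library sizes (CPM), these were 2.69, 1.60 and 2.91 against 20.4, 20.7 and 22.5. All knockdown libraries lay far above all control libraries and close to one another, with a coefficient of variation of 5.46% against 29.2% in the control. Counting error is relatively larger at the low control counts, so no difference in spread is read from these coefficients. The mean went from 2.40 ± 0.700 to 21.2 ± 1.16 CPM (SD, n = 3 per group), an 8.70-fold difference (log2 fold change 3.12, SE 0.21).

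RARRES2 was the scarcest of the 7 genes in control cells, with 6, 2 and 2 counts, against 20, 17 and 9 in the knockdown. These were 0.949, 0.457 and 0.529 CPM without and 3.96, 3.70 and 2.41 CPM with the macroH2A1 hairpin, so the groups did not overlap. The summed counts were 46 against 10. Divided by the ratio of summed TMM library sizes, this was a ratio of 4.97 with an exact conditional 95% interval of 2.48 to 11.1, which covers counting error only. The fitted log2 fold change was 2.27 (SE 0.38). No control library reached the 2.24 CPM that the filter on low counts asks for and all 3 knockdown libraries did, so RARRES2 entered the test through the group where it was high.

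LIMCH1 and SCN7A, the other members that were called, differed by less and from higher starting counts. LIMCH1 had 39, 18 and 29 control counts and 73, 81 and 55 knockdown counts. Its CPM values were 6.17, 4.12 and 7.66 in the control and 14.4, 17.6 and 14.7 in the knockdown, again without overlap. The mean went from 5.98 ± 1.78 to 15.6 ± 1.75 CPM, 2.61-fold (log2 fold change 1.38, SE 0.23, n = 3 per group).

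SCN7A, the most abundant of the 7 in CPM, had 188, 113 and 88 counts in the control and 257, 250 and 173 in the knockdown. Its CPM values were 29.7, 25.8 and 23.3 against 50.8, 54.4 and 46.3. The highest control library stayed well below the lowest knockdown library, and the mean went from 26.3 ± 3.26 to 50.5 ± 4.02 CPM, 1.92-fold (log2 fold change 0.94, SE 0.11, n = 3 per group).

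PLEKHH2, INMT and GPM6B were not called. PLEKHH2 had 15.2, 19.0 and 16.7 CPM in the control and 19.6, 22.0 and 19.0 in the knockdown. The groups only just failed to overlap, since the highest control and the lowest knockdown library both round to 19.0, and the log2 fold change was 0.26 (SE 0.12). INMT was the only member with a negative value: 6.64, 12.1 and 10.0 CPM in the control against 7.12, 5.44 and 8.04 in the knockdown, a log2 fold change of -0.47 (SE 0.28). Control replicate 1 lay inside the knockdown range, so the INMT groups overlapped.

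The counting of INMT carries a limit of its own. In GENCODE 29, 11.1% of its exon bases are shared with the readthrough gene INMT-MINDY4 on the same strand and 5.51% with CRHR2 on the other strand, and reads that fall on more than 1 gene are left out in the union mode of HTSeq. INMT-MINDY4 had 0 counts in all 6 libraries. Reads on the bases it shares with INMT would be left out for both, so this 0 does not show whether INMT lost reads. No other member shared exon bases with those counted genes that GENCODE 29 holds, and the remaining counted genes were not checked.

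GPM6B had 12, 15 and 7 counts in the control and 17, 11 and 5 in the knockdown, or 1.90, 3.43 and 1.85 against 3.36, 2.39 and 1.34 CPM. The 2 groups overlapped over most of their ranges, and the means were 2.39 ± 0.898 and 2.36 ± 1.01 CPM (n = 3 per group). The summed counts were 34 in the control and 33 in the knockdown. Corrected for library size in the same way, the ratio was 1.05, with an exact conditional 95% interval of 0.630 to 1.75 for counting error alone.

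**Figure D1:**
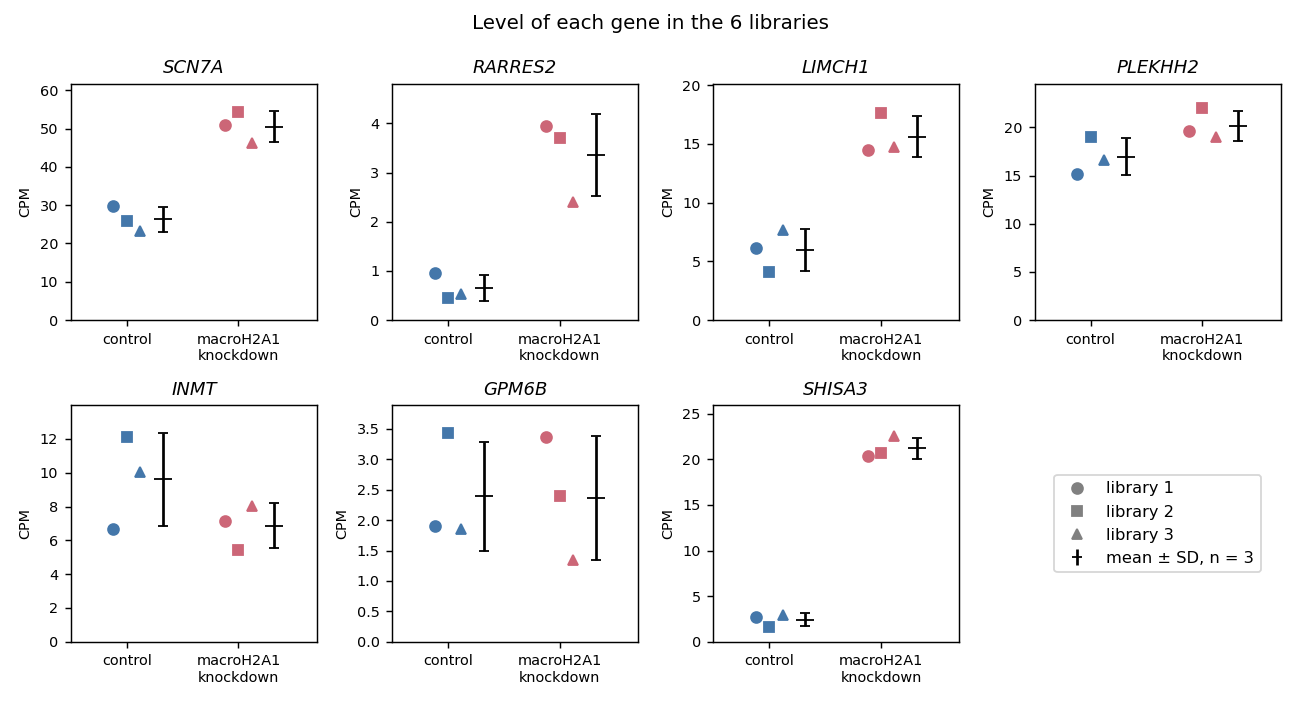
Counts per 1000000 (CPM) of each gene in the 3 control and 3 macroH2A1 knockdown libraries, with the group mean and SD beside the points and every axis starting at 0. The groups lie apart for SHISA3, RARRES2, LIMCH1 and SCN7A, nearly touch for PLEKHH2, and overlap for INMT and GPM6B.

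In all, 4 of the 7 genes were called higher and none lower in the fit over all 13445 genes tested (quasi-likelihood test of edgeR with Benjamini-Hochberg adjustment, threshold 0.05), where 3.90% of genes were called higher and 4.31% lower. In 5 of the 7 the knockdown libraries all lay above the control libraries, which was so for 14.5% of all genes tested. Without RARRES2, which entered the test through the knockdown libraries alone, 3 genes remain called higher. Because the choice of genes drew on this contrast, nothing is read from these shares. The authors' deposited table lists all 7 genes, with log2 ratios of knockdown over control of 3.15 for SHISA3, 2.39 for RARRES2, 1.39 for LIMCH1, 0.95 for SCN7A, 0.26 for PLEKHH2, -0.47 for INMT and -0.01 for GPM6B.

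The calls of SHISA3 and SCN7A held in all 16 alternative settings, while RARRES2 lost its call in 5 and LIMCH1 in 4. Both lost it with the replicate number as a block, which keeps all libraries (log2 fold change 2.31 and 1.40). RARRES2 was no longer called without control replicate 2 (log2 fold change 2.08), control replicate 3 (2.16), knockdown replicate 1 (2.15) or knockdown replicate 2 (2.21). LIMCH1 was no longer called without control replicate 1 (log2 fold change 1.42), knockdown replicate 2 (1.29) or knockdown replicate 3 (1.43). The fold changes moved little, while the smaller fits called fewer genes overall.

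**Figure D2:**
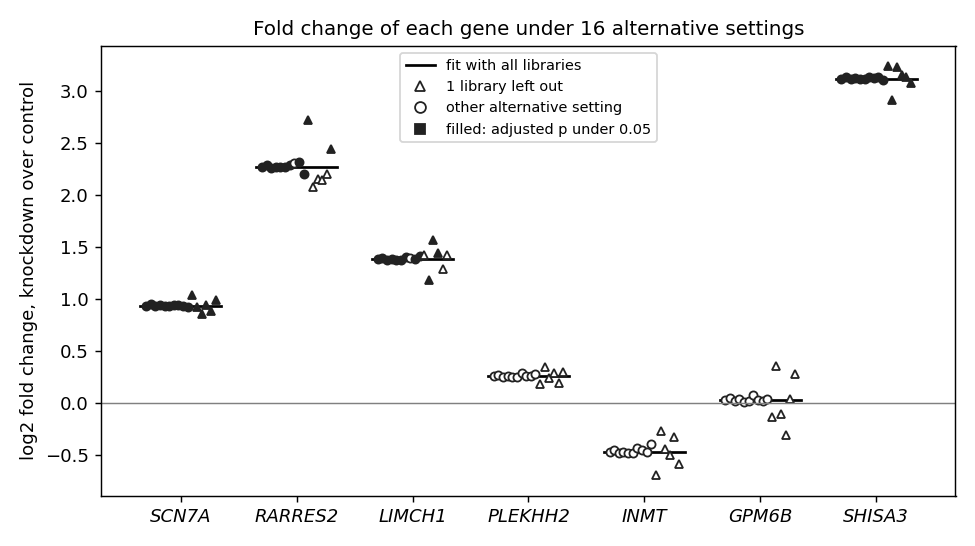
Log2 fold change of each gene in the fit with all libraries (line) and under 16 alternative settings, with triangles for fits that leave out 1 library and filled symbols for an adjusted p under 0.05. SHISA3 and SCN7A are filled throughout, RARRES2 and LIMCH1 are open in 5 and 4 settings, and GPM6B lies on both sides of 0.

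Per kilobase of exon, the order of the 7 genes differed between the groups. In the control, SCN7A (2.89 ± 0.359 CPM per kilobase) and INMT (2.84 ± 0.819) came first with overlapping libraries, followed by PLEKHH2 (1.72 ± 0.194) and SHISA3 (1.22 ± 0.355), each apart from its neighbours (SD, n = 3 per group). LIMCH1 (0.551 ± 0.164), GPM6B (0.422 ± 0.158) and RARRES2 (0.336 ± 0.138) were lowest, and each overlapped the next.

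In the knockdown SHISA3 was highest at 10.7 ± 0.586 CPM per kilobase and SCN7A next at 5.56 ± 0.442, both apart from the rest. PLEKHH2 (2.05 ± 0.159), INMT (2.03 ± 0.391), RARRES2 (1.75 ± 0.431) and LIMCH1 (1.44 ± 0.162) followed in a chain in which each overlapped the next, and GPM6B (0.417 ± 0.178) was lowest and apart from them. The lengths are those of all GENCODE 29 exons of a gene merged, so a gene read mainly from short transcripts has a true level above the value given. Summed over the 7 genes, the level was 62.9 to 66.5 CPM in the control libraries and 114 to 126 CPM in the knockdown libraries. SHISA3 made up 3.73% of the sum of the control means and 17.6% of that of the knockdown, and INMT 14.9% and 5.72%.

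**Figure D3:**
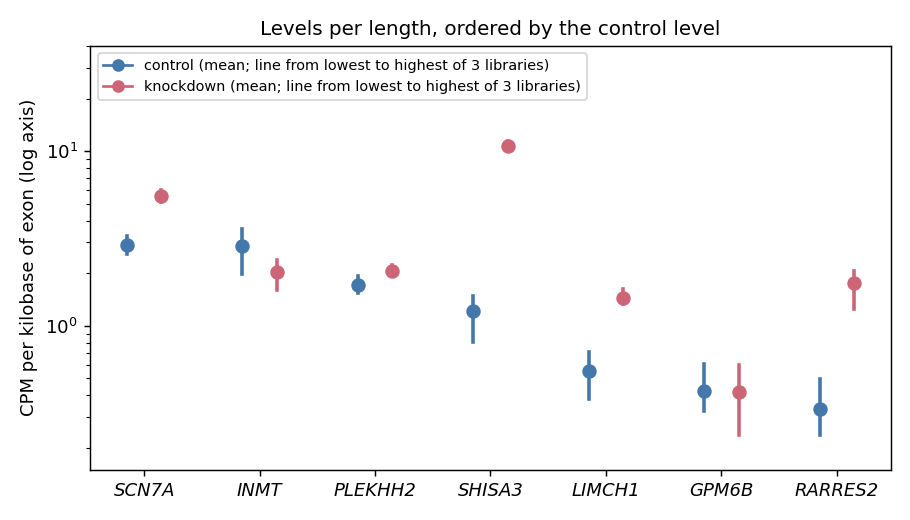
Mean level of each gene in CPM per kilobase of exon on a log axis, ordered by the control level, with a line from the lowest to the highest of 3 libraries. SHISA3 goes from the middle of the order in the control to the highest level in the knockdown, while the lines of GPM6B and INMT overlap between the groups.

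A wider list of 26 other alveolar fibroblast markers, also drawn up with results of these data known, had more genes higher than lower. Of 15 with enough counts to test, 10 rose, none fell and 5 did not pass (edgeR, adjusted over all genes tested, of which 3.90% rose), with a median log2 fold change of 1.06 against 0.0067 over all genes. WNT2, a ligand of the WNT pathway made by lung mesenchyme, rose from 5.41 ± 0.867 to 16.7 ± 0.976 CPM, and ADH1B, an alcohol dehydrogenase, from 8.24 ± 1.77 to 46.3 ± 0.595 CPM (edgeR adjusted p = 0.00317 and 0.000758, n = 3 per group). MFAP4, a microfibril-associated glycoprotein, rose 3.40-fold and RGCC, a regulator of the cell cycle, 2.95-fold (edgeR adjusted p = 0.000844 and 0.00148).

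Smaller rises were those of TCF21, a transcription factor that marks this lineage, SVEP1, a large secreted adhesion protein, and PDGFRA, a growth factor receptor, with log2 fold changes of 0.73, 0.71 and 1.06. A2M, FMO2 and FGFR4 rose as well, but like RARRES2 they entered the test through the knockdown libraries alone. Without them 7 genes remain called, while the median given above includes them. Because the list was drawn up with results of these data known, nothing is read from its count or median. FGFR4 had 9, 8 and 4 control counts and 19, 16 and 15 knockdown counts, and was not called in 10 of the 16 alternatives. ROBO2, SLIT2, MACF1, PLIN2 and PPARG did not pass, with log2 fold changes of -0.14, -0.28, -0.34, -0.25 and 0.13 and adjusted p from 0.0674 to 0.668.

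**Figure D4:**
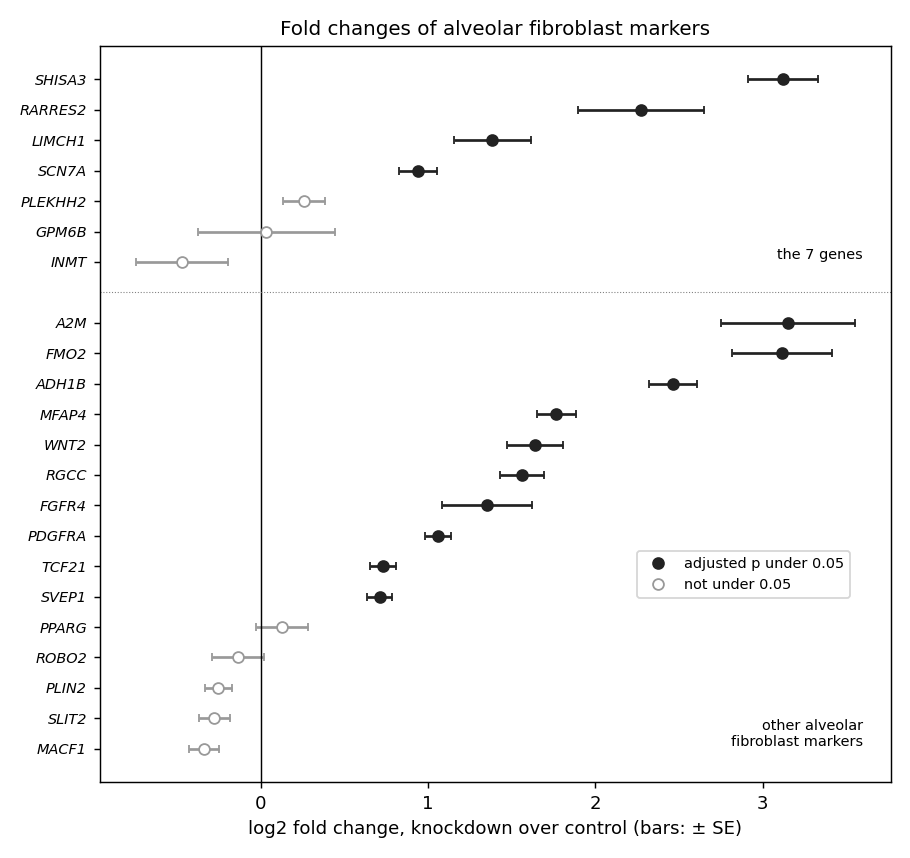
Log2 fold change, knockdown over control, with its SE, for the 7 genes (top) and the 15 tested genes of the wider alveolar fibroblast list (bottom); filled points had an adjusted p under 0.05. Filled points are all to the right of 0, and the open points lie between -0.47 and 0.26.

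Some markers of the wider list were close to absent in both groups, while others were well counted in both. PDGFRA had 496 and 1035 CPM in control and knockdown, and TCF21 52.4 and 87.2 CPM. The name alveolar fibroblast therefore holds here for the genes, and the state of the cells was not tested. NPNT, GPC3 and CES1 had 1, 2 and 1 counts over all 6 libraries and NEBL had 0. Named after their values were seen, ITGA8, an integrin subunit, had 0, 1 and 0 control counts and 17, 11 and 5 knockdown counts, and BMP5 had 4, 5 and 4 against 10, 17 and 19; both were below the filter and were not tested.

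In 4 lists for other fibroblasts and pericytes of the lung, 1 to 3 genes were called per list, where 3.90% of all genes tested were called higher and 4.31% lower. Of 8 tested adventitial fibroblast markers, COL14A1 rose (log2 fold change 2.44), CCDC80 fell (-0.53) and 6 did not pass, and the list median was 0.12. CCDC80 was not called without control replicate 2 (-0.52). Of 9 tested airway and alveolar myofibroblast markers, SFRP1, a secreted WNT antagonist, went down from 443 ± 30.7 to 203 ± 4.65 CPM (edgeR adjusted p = 0.00093, n = 3 per group), none rose and 8 did not pass, with a median of -0.11. Of 11 tested injury-associated markers, TNC rose (1.17), COL11A1 (-2.09) and ADAM12 (-0.88) fell and 8 did not pass, with a median of -0.01; ADAM12 was not called in 8 of the 16 alternatives. Of 8 tested pericyte markers, TRPC6, a cation channel, and MCAM, an adhesion molecule, rose (0.99 and 0.57) and 6 did not pass, with a median of 0.28. MCAM was not called without control replicate 1 (log2 fold change 0.54), without control replicate 2 (0.53) or with the replicate number as a block (0.57). Whether these shares differ from that of the alveolar list was not tested.

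**Figure D5:**
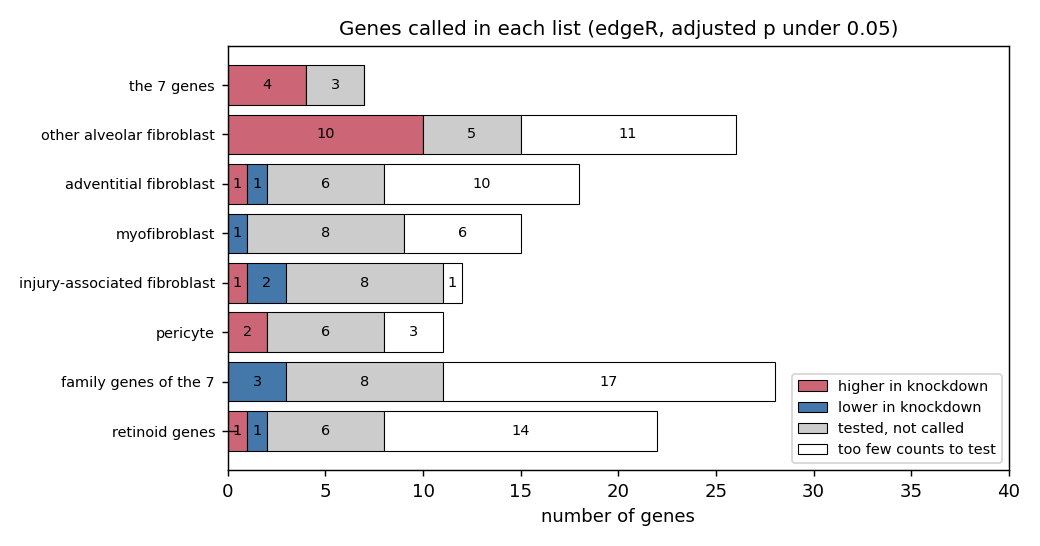
Number of genes in each list that were called higher or lower in the knockdown, tested without a call, or too low in counts to test. The 7 genes have 4 called higher, the other alveolar list 10, and each remaining list at most 2.

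Among relatives of the 7 genes, none of 11 tested members of the same families rose, 3 fell and 8 did not pass, where 3.90% of all genes tested rose and 4.31% fell. SCN9A, a sodium channel of the family of SCN7A, went down from 267 ± 13.4 to 144 ± 3.10 CPM, and LMO7, the nearest relative of LIMCH1, from 322 ± 17.2 to 171 ± 9.32 CPM (edgeR adjusted p = 0.00132 and 0.00175, n = 3 per group). SCN4B, a sodium channel beta subunit, had 27, 28 and 17 control counts against 6, 11 and 7 (log2 fold change -1.47, adjusted p = 0.0425 with edgeR), and was not called in 9 of the 16 alternatives.

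Of the relatives that did not pass, SCN2A had a log2 fold change of 0.95 (edgeR adjusted p = 0.0716), SHISA5 -0.37 (0.0615), SCN3A -0.60 (0.436), SCN8A -0.06 (0.824), SHISA4 0.23 (0.748) and PLEKHH3 0.12 (0.901). NNMT, a methyltransferase like INMT, had 28.6 and 26.0 CPM in control and knockdown (log2 fold change -0.14, edgeR adjusted p = 0.454). PNMT, GPM6A, SHISA6, SHISA7 and SHISA8 were at 0 in every library.

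Some genes that act with the 7 were called in either direction, against 3.90% of all genes tested called higher and 4.31% lower. The chemerin receptors CMKLR1, CMKLR2 and CCRL2 had 2, 12 and 1 counts over all 6 libraries and were not tested. Of 8 tested retinoid genes, RXRA, a retinoid X receptor, rose (log2 fold change 0.61, edgeR adjusted p = 0.0216) and TGM2, a transglutaminase, fell (-0.69, 0.00303), while 6 did not pass; RARRES1, which shares its naming with RARRES2, had 13, 4 and 7 against 17, 10 and 6 counts. RXRA was not called in 6 of the 16 alternatives. Of 9 tested non-muscle myosin II genes, MYL12A, a regulatory light chain, fell (-0.33, edgeR adjusted p = 0.0315, lost in 10 of 16 settings) and 8 did not pass, MYH9 among them at -0.21. Of 8 tested FGF and frizzled receptors, FGFR1 and FGFR4 rose (0.39 and 1.35), FZD6 fell (-0.46) and 5 did not pass; neither FGF receptor was called in any fit that left out 1 library, and FGFR1 and FZD6 lost their calls in 9 and 6 of 16 settings.

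For each of the 7 genes, the closest patterns among 10436 other protein-coding genes were found by Pearson correlation of log2 CPM over the 6 libraries. They were LAMA4, C1S and RASSF2 for SHISA3 (r = 0.998 for each), ANO4 and GALNT12 for SCN7A (0.994 for each), KLHL24, DDIT4 and PTPRG for RARRES2 (0.999 to 0.998), and PFDN5, SOBP and GREM1 for LIMCH1 (0.997 to 0.996). For those not called they were ZNF282, AP2A2 and TMEM205 for PLEKHH2 (0.999 to 0.989), SGTA, ALG10B and POMGNT2 for INMT (0.995 to 0.980), and MAFK, SMTN and ZFTRAF1 for GPM6B (0.984 to 0.979). No gene appeared beside more than 1 member. With 6 points and many genes compared, correlations of this size were found for each of the 7 genes, called or not. The closest patterns of the called genes had log2 fold changes from 0.22 (GREM1, itself not called) to 1.43 (RASSF2). Those of PLEKHH2 had 0.17 to 0.48 and those of INMT -0.84 to -0.31, so a group difference was not particular to called genes. GPM6B (log2 fold change 0.03) and its closest patterns (-0.04 to -0.01) hardly differed between the groups.

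Facts of the whole series bear on these values as follows. Reads assigned to genes numbered 3741087 to 6421605 per library, where 3 counts correspond to 0.467 to 0.802 CPM. MACROH2A1, the targeted gene, had 84.8 to 92.1 CPM in the control and 39.0 to 43.7 CPM in the knockdown libraries (46.3% of the control level). Of 14 general fibroblast markers, 13 were tested, 5 rose and none fell, where 3.90% of all genes tested rose and 4.31% fell. COL1A2, 1 of the 5, was not called in 6 of the 16 alternatives. PDGFRA, also 1 of the 5, is counted in the wider alveolar list as well, so the lists are not separate. The summed level of the 14 markers was 10594 to 12206 CPM in the control and 15047 to 16399.6 CPM in the knockdown. Abundant genes weigh most in this sum: COL1A2 went from 2579 to 3904 CPM and COL3A1 from 1015 to 2221. The 8 that did not pass had log2 fold changes from -0.14 (FAP) to 0.53 (TWIST2), with VIM at 0.0006 and FN1 at 0.10. The summed level moved with SHISA3, RARRES2, LIMCH1 and SCN7A, and its part in their differences was not tested. In bulk RNA, more cells of a kind and more RNA per cell cannot be told apart. Summed over each list, markers of epithelium (0.804 to 2.11 CPM), endothelium (0.870 to 3.48) and glia (1.27 to 2.17) were near 0 in all libraries, with 6 of 16, 2 of 10 and 3 of 10 genes at 0, among them SFTPB, PECAM1 and SOX10. Blood cell markers summed to 5.09 to 9.15 CPM, mostly CD68, which was not called, and CD3E, MARCO and TYROBP were at 0. Mesothelial markers were at 0 to 1.37 CPM except in knockdown replicate 2, where UPK3B alone had 67 counts; MSLN and ITLN1 were at 0.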

How the data were processed

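For 6 libraries of IMR90 cells the authors deposited raw counts of reads by Ensembl identifier, made with CASAVA 1.7, GSNAP and HTSeq on hg19 per the submitters' processing notes, with a strand setting and gene annotation not given in the sources used here. Lines that name no gene (86.3% to 88.1% of the listed total) were left out. Most of this was the line for alignments that were not unique, at 64.4% to 68.8% of the listed total. The authors also deposited a table made with DESeq 1.10.1 that gives a mean signal, a ratio of group means, its log2 and p-values; its log2 ratios lie within 0.039 of log2 ratios of knockdown over control computed here from the counts. Per the labels' protocols, all libraries shared 1 lane.

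Genes were filtered with filterByExpr (minimum count 10), scaled with TMM and tested with edgeR 4.0.16 (glmQLFTest, group as the only term; adjusted p under 0.05) in R 4.3.3 over all 13445 genes that passed. An SE is the log2 fold change divided by the square root of F. DESeq2 1.42.0 and limma 3.58.1 were alternatives, with 3 scalings, 4 choices of genes, a replicate block and leaving out each library. Symbols came from the gene name table, and exon lengths from GENCODE 29, which holds 47399 of the 57659 genes. One list entry had no match. The genes and lists were chosen with earlier results of these data known. By rule, text names all 7 genes, up to 4 called genes with the largest change per list, all tested family genes and marker checks, and the 3 closest patterns (a family gene and a closest pattern are not reported here); other genes were named after their values were seen. On counts simulated for this comparison over 13183 genes with 200 changed, the fit recovered 35.4% of log2 changes of 1 and 99.0% of changes of 2.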

Additional observations from a re-analysis of the deposited data

How the results depend on the processing

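Under 16 alternatives the log2 fold changes of the 7 genes gave 112 values, of which 100 kept direction and call, 9 lost the call and 3 changed sign. The sign changes were those of GPM6B, which ranged from -0.31 to 0.36 with 1 library left out. With 1 library left out, 2 to 3 of the 7 genes were called higher, 9 to 10 of the wider alveolar list, and 225 to 303 genes higher and 198 to 262 lower in all, against 524 and 580; with 5 libraries the fit has fewer degrees of freedom. PPARG ranged from -0.0255 to 0.23, PLEKHH3 from -0.24 to 0.44 and SHISA4 from -0.0791 to 0.49 in those fits, and none was called. Testing only genes of the authors' deposited table called 1020 genes higher and 1022 lower, and the cause was not tested. MACF1 was then called lower, 1 gene of the wider list, as it was with DESeq2 (1 gene) and limma-voom (1 gene). With the replicate number as a block, 2 of the 7 genes, SHISA3 and SCN7A, were called, and 230 genes higher and 186 lower in all. Same-numbered libraries did not deviate together (correlations -0.0213, -0.0174 and -0.17), and none of 3 control libraries was closest to its own number. With 3 libraries per group, these correlations cannot decide whether the numbers mark pairs. The listed totals of control and knockdown were alike by number: 46821294 and 44546003, 32204507 and 33193394, and 28537921 and 28350044. No scaling shifted the median of all genes by more than 0.0178 on the log2 scale. Depth limits RARRES2 and GPM6B most, with 56 and 67 counts in all.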
